A study of Nicotiana benthamiana with 12 samples.

Results

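Polysome RNA and total RNA of leaves held at 37 °C for 1 h were compared, to ask which transcripts were over- or under-represented on polysomes during heat. The comparison rests on 6 of the 12 RNA-seq libraries of the study, chosen by their labels: 3 of polysome RNA and 3 of total RNA from heat-treated plants. The plants were Nicotiana benthamiana, a relative of tobacco widely used in the laboratory, grown in soil under long days and sampled at an age of 5 weeks. The other 6 libraries, 3 of polysome RNA and 3 of total RNA from mock plants at 23 °C, serve here to show where the ratio differed between temperatures. The labels name no genotype or transgene and no agent other than temperature. The way polysomes were isolated was not given in the sources used here.

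Libraries of a group are described by the submitters as biological replicates. Total counts per library were 11766622 to 14485118 in 37 °C polysome RNA and 12601286 to 14313000 in 37 °C total RNA. The 100 most abundant genes held 41.02% to 44.95% of the counts of a 37 °C polysome library, against 27.14% to 27.94% of a 37 °C total library. Pearson correlations of log2 CPM were 0.978 to 0.986 among the 3 polysome libraries and 0.992 among the 3 total libraries, against 0.862 to 0.879 across the fractions. No pair of libraries agreed within counting noise, since the chi-square per degree of freedom was 1.73 or more. Polysome replicate 5 differed more from the other polysome libraries (11.49 and 12.98 per degree of freedom) than these did from each other (2.57), and without it 9622 genes were higher and 8935 lower in the test.

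An mRNA that is being translated carries several ribosomes at a time, and such polysomes can be separated from free RNA and single ribosomes. The ratio of a transcript's level in polysome RNA to its level in total RNA is therefore a common measure of how well it is recruited to ribosomes. Heat stress lowers translation of many plant mRNAs while heat shock protein mRNAs stay engaged, which is established background and was not measured here.

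Levels are given as CPM, the counts of a gene per 1e+06 counts of the library after scaling with TMM factors, in the order of the library numbers. The log2 ratio is polysome over total RNA at 37 °C, with the standard error of the fit over 3 libraries a group. Adjusted p-values are from edgeR's quasi-likelihood test with Benjamini-Hochberg adjustment over all genes tested, and "higher" or "lower" means on polysomes relative to total RNA with an adjusted p below 0.05. Counts are not corrected for transcript length, so levels are compared between fractions and not between genes. Genes carry the identifier and the homology text of the deposited annotation. Many copies share that text, as this species is an allotetraploid, and the counting may have divided reads among near-identical copies, which makes the value of any 1 copy uncertain. In a leaf sample, fewer cells of a type and less RNA per cell cannot be told apart.

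Most tested transcripts were not spread evenly between the fractions. Of 40763 genes, 34325 were tested, and 10560 (30.8%) were higher and 9743 (28.4%) lower on polysomes, while 14022 were not called. With an absolute log2 ratio over 1, 7136 were higher and 6890 lower. The 3 polysome libraries did not overlap the 3 total libraries for 69.0% of the genes tested. The median log2 ratio of all tested genes was 0.07. It was -0.89 when libraries were scaled by their totals alone, and 3090 genes were then higher and 19127 lower. A ratio therefore says how a transcript stood relative to the typical transcript, and the data do not give the part of its molecules on polysomes. Counts and medians below are on the TMM scale and are read against 30.8%, 28.4% and 0.07, and the median with library totals alone stands beside each list or subgroup whose sign it turns.

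**Figure D1:**
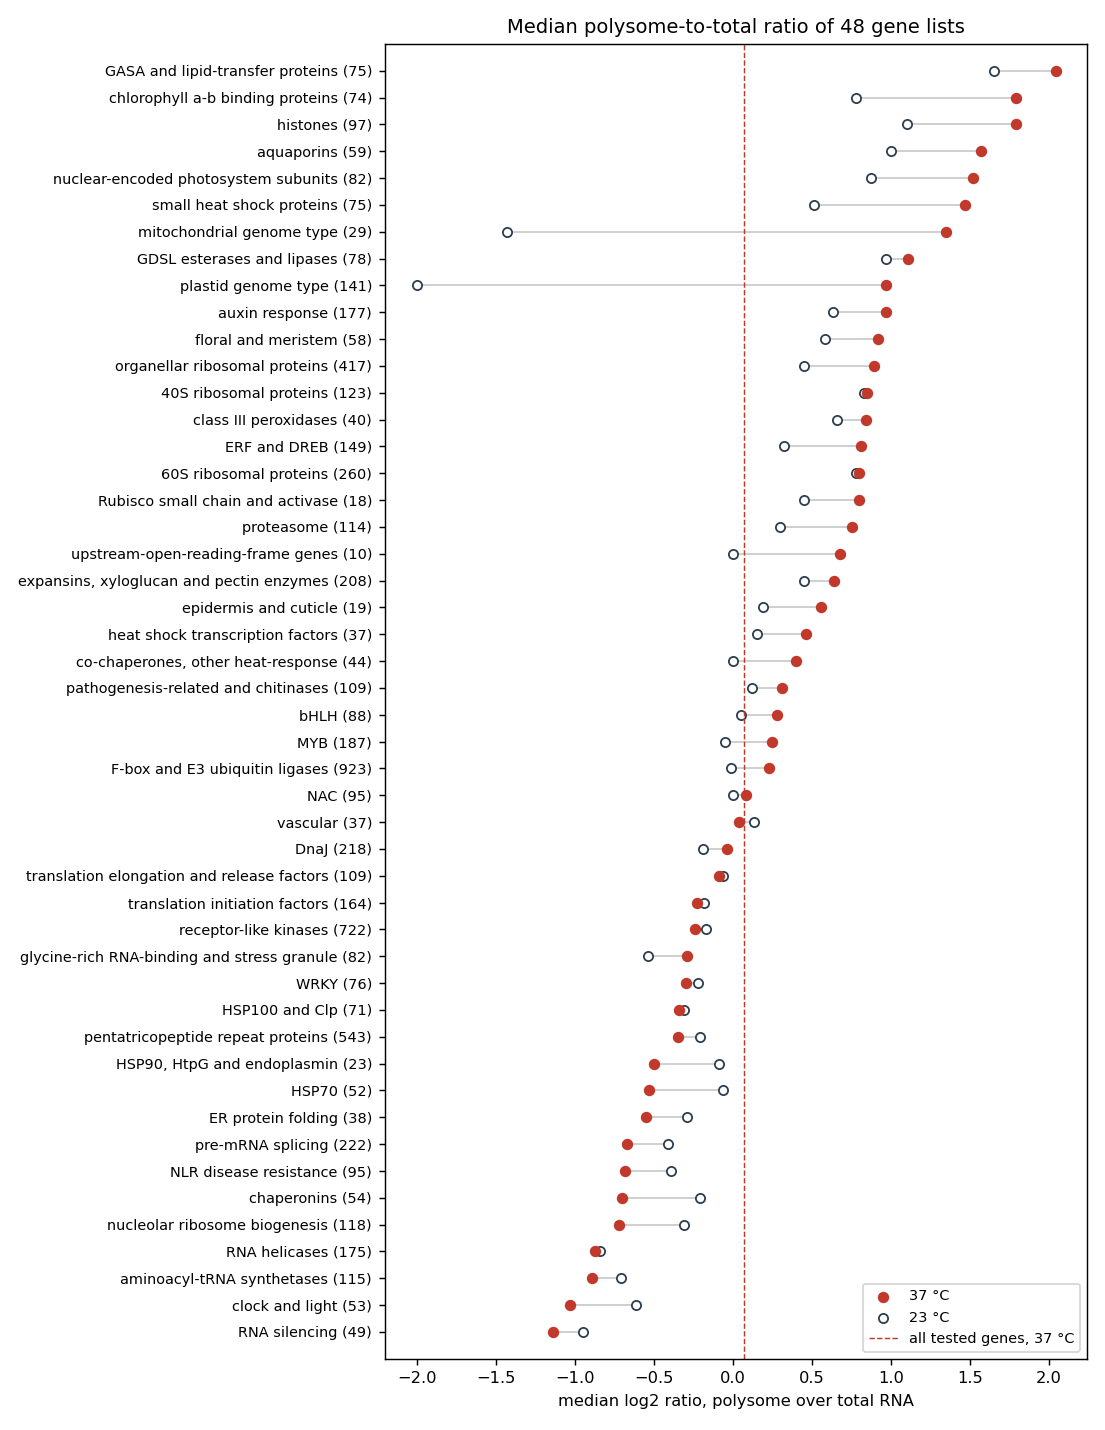
Median log2 ratio of polysome over total RNA at 37 °C (filled) and 23 °C (open) for 48 gene lists, with the number of tested genes in parentheses and the median of all tested genes at 37 °C (0.07) as a dashed line. GASA and lipid-transfer proteins (2.04), antenna proteins and histones (1.79 each) lie at the top and RNA silencing genes (-1.14) at the bottom. The small heat shock proteins (0.51 at 23 °C) held at most 0.0562% of the counts of any library at 23 °C. With library totals alone every median is lower. Many then fall below 0, among them those of the ribosomal protein, Rubisco, proteasome, heat stress factor (-0.47) and F-box and E3 ligase (-0.74) lists.

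Small secreted proteins, a cyclophilin and the heat regulator MBF1c were among the 10 largest ratios, and sacsin, the auxin transport protein BIG and the ubiquitin ligase UBR1 among the 10 smallest, among annotated genes of at least median level whose libraries did not overlap. Of the 10 largest positive ratios, 3 belonged to lipid-transfer proteins, small secreted proteins that carry lipids to the cuticle and wall. Non-specific lipid-transfer protein 1 (Niben101Scf29144g00011.1) had 6436, 4483 and 4709.8 CPM in polysome RNA, against 619, 579.8 and 580.1 CPM in total RNA (log2 ratio 3.14 ± 0.27, adjusted p = 1.4e-07). A second non-specific lipid-transfer protein (Niben101Scf02655g01005.1) had 188, 153.9 and 158 CPM in polysome RNA, against 20.1, 19.7 and 21.1 CPM in total RNA (log2 ratio 3.03 ± 0.18, adjusted p = 1.3e-08). A bifunctional inhibitor/lipid-transfer protein (Niben101Scf04714g00004.1) was counted at 17.2, 12.5 and 10.3 CPM in polysome RNA, against 1.83, 1.46 and 1.58 CPM in total RNA (log2 ratio 3.03 ± 0.28, adjusted p = 2.9e-07). In all of these the 3 polysome libraries stood well above the 3 total libraries, and replicate 5 was the highest of them.

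Multiprotein-bridging factor 1c (Niben101Scf01587g01006.1), a transcriptional coactivator needed for thermotolerance in Arabidopsis, reached 7853, 5948 and 6177 CPM in polysome RNA, against 858, 801 and 798.3 CPM in total RNA (log2 ratio 3.02 ± 0.19, adjusted p = 1.4e-08). Peptidyl-prolyl cis-trans isomerase A (Niben101Scf01847g03004.1), a cyclophilin that helps proteins fold, had 5533, 3785 and 3764 CPM in polysome RNA, against 485, 461 and 450.3 CPM in total RNA (log2 ratio 3.23 ± 0.23, adjusted p = 2.9e-08). Every polysome library exceeded every total library for these genes, as the choice of genes required, and they were also abundant in total RNA. MLO-like protein 4 (Niben101Scf01993g08022.1), of a family of membrane proteins known from powdery mildew susceptibility, was scarce in total RNA, with 12.9, 13.4 and 14.3 CPM in polysome RNA, against 1.26, 0.697 and 0.609 CPM in total RNA (log2 ratio 3.96 ± 0.41, adjusted p = 8.6e-07). Transcription factor RADIALIS (Niben101Scf08718g00004.1), a small MYB-type protein known from floral asymmetry in Antirrhinum, had 81.2, 63.1 and 76.4 CPM in polysome RNA, against 7.15, 6.53 and 7.79 CPM in total RNA (log2 ratio 3.36 ± 0.29, adjusted p = 1.3e-07). Calcium-dependent protein kinase 29 (Niben101Scf00508g00002.1) showed a log2 ratio of 3.28 ± 0.30 (adjusted p = 2.6e-07). The remaining members of this group were a thionin-like protein (Niben101Scf05375g00004.1), of a class of small antimicrobial peptides, with a log2 ratio of 3.24 ± 0.64 (adjusted p = 0.00041), and a glycine-rich protein (Niben101Scf03052g00011.1) with a log2 ratio of 3.05 ± 0.42 (adjusted p = 1.3e-05). The thionin-like gene was unsteady in total RNA, where replicate 3 was low at 0.887 CPM, beside 4.69 and 3.96 CPM in the other total libraries.

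At the other end stood transcripts that were nearly absent from the polysome counts while present in every total library. Sacsin (Niben101Scf04567g03028.1), a giant chaperone-like protein known from human neurons, had 0.123, 0.106 and 0.498 CPM in polysome RNA, against 11.3, 14.6 and 14.4 CPM in total RNA. Its polysome libraries held 3 counts above the lowest count in the files, and the ratio was 0.0088 (95% counting interval 0.00181 to 0.0258). The auxin transport protein BIG (Niben101Scf06560g02002.1), a very large protein involved in auxin transport in Arabidopsis, had 1.97, 2.53 and 1.62 CPM in polysome RNA, against 36.4, 42.3 and 46.4 CPM in total RNA (log2 ratio -4.33 ± 0.24, adjusted p = 8.9e-09). E3 ubiquitin-protein ligase UBR1 (Niben101Scf01025g08001.1), which in yeast marks proteins by their N-terminal residue, had 0.615, 0.739 and 1.12 CPM in polysome RNA, against 15.9, 19.3 and 17.05 CPM in total RNA (log2 ratio -4.39 ± 0.33, adjusted p = 4.3e-08). In both genes all polysome libraries were far below total RNA. A homolog of regulator of nonsense transcripts 1 (Niben101Scf14542g00033.1), the helicase of nonsense-mediated mRNA decay, had 0.246, 0.211 and 0.373 CPM in polysome RNA, against 9.67, 11.8 and 11.995 CPM in total RNA (log2 ratio -5.30 ± 0.32, adjusted p = 1.1e-08). No polysome library reached the lowest total library in any of these genes, as the choice of genes required.

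The same held for phosphoenolpyruvate carboxylase 3 (Niben101Scf07352g00001.1), an enzyme that fixes bicarbonate, with 2.09, 1.58 and 2.24 CPM in polysome RNA, against 35.9, 36.4 and 41.95 CPM in total RNA (log2 ratio -4.27 ± 0.24, adjusted p = 8.9e-09). Phosphatidylinositol 4-kinase alpha 1 (Niben101Scf01049g05011.1), which makes a signalling lipid, had a log2 ratio of -4.97 ± 0.38 (adjusted p = 4.6e-08). Cytoplasmic FMR1-interacting protein 2 (Niben101Scf00126g01010.1), a subunit of the actin-regulating WAVE complex, had a log2 ratio of -4.25 ± 0.29 (adjusted p = 2.3e-08). An enhancer of polycomb-like protein (Niben101Scf04044g19020.1), of a family in histone acetyltransferase complexes, had a log2 ratio of -4.49 ± 0.28 (adjusted p = 1.4e-08). The ratios of leucine-rich repeat-containing protein 1 (Niben101Scf01586g01010.1) and of an embryo-defective gene (Niben101Scf06424g02028.1) were -5.73 ± 0.36 and -5.29 ± 0.34 on the log2 scale (both adjusted p = 1.5e-08). With 4 to 6 counts above the lowest count over 3 polysome libraries, the sizes of the ratios of the nonsense-decay, leucine-rich repeat and lipid kinase genes are imprecise.

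**Figure D2:**
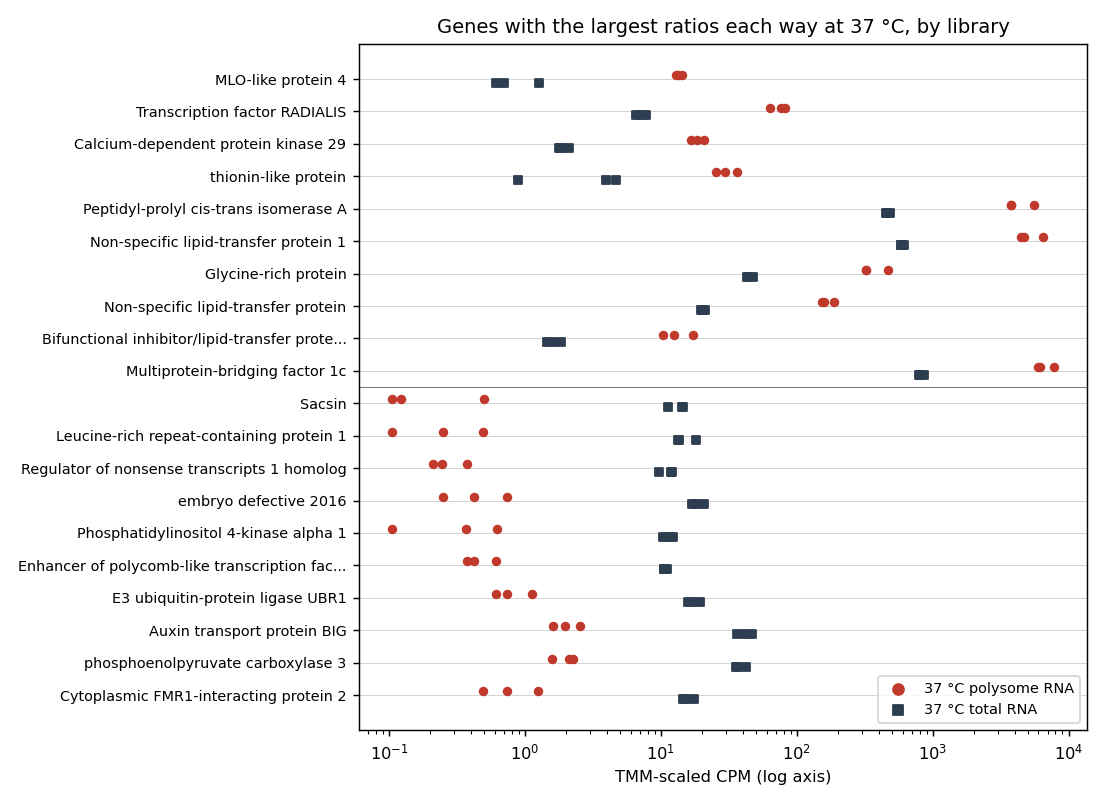
TMM-scaled CPM on a log axis of the 10 annotated genes with the largest and the 10 with the smallest polysome-to-total ratios at 37 °C, each point 1 library. Polysome libraries (circles) and total libraries (squares) do not overlap in any of the 20 genes, which the choice of genes required.

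The chaperone families differed in direction. The small heat shock proteins, which hold unfolding proteins in solution without ATP, were over-represented on polysomes: of 75 genes tested, 56 were higher and 1 lower, and the median log2 ratio was 1.47, against 0.07 for all genes. They made up 6.10, 5.80 and 5.94% of counts in polysome RNA, against 3.13, 3.10 and 3.11% in total RNA, so the family held a larger part of every polysome library than of any total library. At 23 °C they held 0.0497% to 0.0562% of counts in polysome RNA and 0.0458% to 0.0532% in total RNA. By class, 20 of 26 class I genes, all 14 class II genes and 4 of 6 class IV genes were higher, with none lower, and medians were 1.57, 1.68 and 2.31. The 5 genes annotated heat shock protein 21, the chloroplast form, were all higher with a smaller median of 0.70, and held 0.290% to 0.335% of counts in polysome RNA, against 0.371% to 0.379% in total RNA. The direction of that subgroup thus depended on the scaling, and its median was -0.29 with library totals alone.

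A class I gene of 17.6 kDa (Niben101Scf10384g00014.1), the member with the most counts, had 18440.4, 12403 and 12779.6 CPM in polysome RNA, against 3124, 2936 and 2865 CPM in total RNA (log2 ratio 2.29 ± 0.25, adjusted p = 1.3e-06). The class IV gene of 22.7 kDa with the smallest p (Niben101Scf08621g03002.1) had 101.4, 97.2 and 105 CPM in polysome RNA, against 16.4, 17.9 and 18.4 CPM in total RNA (log2 ratio 2.52 ± 0.12, adjusted p = 8.3e-09). All its libraries at 23 °C were at the lowest count, so no ratio is given there. In both genes the polysome libraries lay far above the total libraries. The only member called lower was annotated just as an HSP20-like chaperone (Niben101Scf11037g00021.1), with 11.2, 14.99 and 13.4 CPM in polysome RNA, against 29.1, 28.6 and 29.1 CPM in total RNA (log2 ratio -1.13 ± 0.15, adjusted p = 9.4e-06).

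The ATP-driven chaperones stood on the other side. Of 52 HSP70 genes, 7 were higher and 29 lower (median -0.53). They held 0.586, 0.723 and 0.688% of counts in polysome RNA, against 1.52, 1.56 and 1.57% in total RNA. Of 23 genes of HSP90, HtpG and endoplasmin, which finish the folding of client proteins, 1 was higher and 12 lower (median -0.50), and they held 0.461, 0.546 and 0.536% of counts in polysome RNA, against 1.08, 1.12 and 1.14% in total RNA. Each polysome library held less of both families than any total library. In the HSP100 and Clp list, 71 genes of ring-shaped unfoldases and their proteases, 13 were higher and 30 lower (median -0.34). Its ClpB disaggregases counted 2 higher and 10 lower of 22 (median -0.44), and its ClpA, ClpC and ClpX genes 3 higher and 16 lower of 25 (median -0.77). The proteolytic subunits of the same complexes counted 7 higher and 4 lower of 23 (median 0.27, and -0.68 with library totals alone).

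Single genes show how far the copies differed. Heat shock 70 kDa protein 3 (Niben101Ctg13137g00001.1) went against its family with 130.5, 179 and 174 CPM in polysome RNA, against 45.02, 38.8 and 29.8 CPM in total RNA (log2 ratio 2.09 ± 0.23, adjusted p = 1.3e-06). A chaperone annotated DnaK (Niben101Ctg05021g00002.1), the bacterial-type HSP70 of organelles, had 4.06, 2.64 and 1.37 CPM in polysome RNA, against 36.5, 35.9 and 42.99 CPM in total RNA (log2 ratio -3.83 ± 0.25, adjusted p = 1.6e-08). The HSP70 gene with the most counts (Niben101Scf12154g01009.1) had 1759, 1528 and 1309 CPM in polysome RNA, against 1329.6, 1344 and 1341 CPM in total RNA, values that overlapped (log2 ratio 0.20 ± 0.15, adjusted p = 0.26). Among HSP90-type genes the one with the most counts was an HtpG gene (Niben101Scf04847g03018.1) at 2030.2, 1906 and 1819 CPM in polysome RNA, against 1423, 1415 and 1474 CPM in total RNA (log2 ratio 0.42 ± 0.16, adjusted p = 0.037). It was the single member called higher, and its log2 ratio was -0.55 with library totals alone and it missed the threshold whichever of the 6 libraries at 37 °C was left out (adjusted p = 0.051 to 0.1). Another HtpG gene (Niben101Scf02024g02023.1) had 0.123, 0.106 and 0.373 CPM in polysome RNA, against 6.01, 5.20 and 4.81 CPM in total RNA, a ratio of 0.0147 (95% counting interval 0.00178 to 0.0538) on 2 polysome counts above the lowest. ClpC (Niben101Scf05211g01005.1) was higher, with a log2 ratio of 1.35 ± 0.13 (adjusted p = 3.6e-07), and ClpA (Niben101Scf00213g02005.1) lower, with 3.32, 2.43 and 2.74 CPM in polysome RNA, against 29.3, 32.4 and 30.6 CPM in total RNA (log2 ratio -3.44 ± 0.22, adjusted p = 1.5e-08). The ClpB gene with the most counts (Niben101Scf08680g01009.1) had a log2 ratio of -0.34 ± 0.18 (adjusted p = 0.12), a difference that did not pass the test.

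Chaperonins, the folding cages of organelles and cytosol, divided by subunit. Of 54 genes, 9 were higher and 29 lower (median -0.70). The 10 kDa lids counted 8 higher and 0 lower of 10 (median 0.91, and -0.06 with library totals alone), while the 60 kDa barrel subunits counted 0 higher and 13 lower of 19 (median -1.09) and the cytosolic T-complex subunits 1 higher and 16 lower of 25 (median -0.83). A 10 kDa chaperonin (Niben101Scf10476g01010.1) had 552, 708 and 691 CPM in polysome RNA, against 269.6, 268 and 256 CPM in total RNA (log2 ratio 1.30 ± 0.15, adjusted p = 2.4e-06). A 60 kDa chaperonin (Niben101Scf03396g01003.1) had 71.6, 60.8 and 59.3 CPM in polysome RNA, against 644, 669.6 and 683 CPM in total RNA (log2 ratio -3.38 ± 0.17, adjusted p = 8.3e-09). The 10 kDa gene with the most counts (Niben101Scf08651g04006.1) had a log2 ratio of 0.89 ± 0.19 (adjusted p = 0.00068), and -0.09 with library totals alone. Lid and barrel transcripts thus went opposite ways on the TMM scale. Libraries did not overlap in any of the 3 genes, which also held for 69.0% of all tested genes. Except for the gene with the most counts, these genes were chosen for a small p.

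Folding enzymes of the endoplasmic reticulum were mostly lower: of 38 genes, 2 were higher and 20 lower (median -0.55). Calreticulin (Niben101Scf00332g06011.1), a calcium-binding lectin chaperone, had 43.04, 36.5 and 33.5 CPM in polysome RNA, against 273, 255 and 278 CPM in total RNA (log2 ratio -2.83 ± 0.17, adjusted p = 1.1e-08). A protein disulfide-isomerase (Niben101Scf33522g00003.1), which forms disulfide bonds, was higher, with 179.9, 152 and 157 CPM in polysome RNA, against 77.9, 77.6 and 74.5 CPM in total RNA (log2 ratio 1.09 ± 0.15, adjusted p = 1.1e-05). Calreticulin-3 (Niben101Scf04375g04006.1) had a log2 ratio of -0.30 ± 0.16 (adjusted p = 0.11), not past the test. The DnaJ co-chaperones, which hand clients to HSP70, were mixed: of 218 genes 69 were higher and 72 lower, or 31.7% and 33.0%, near the shares of all genes. One DnaJ gene (Niben101Scf08966g00001.1) had 132, 135 and 129 CPM in polysome RNA, against 24.9, 24.8 and 22.2 CPM in total RNA (log2 ratio 2.46 ± 0.15, adjusted p = 1.2e-08), and another (Niben101Scf05222g05008.1) had 4.06, 3.80 and 4.86 CPM in polysome RNA, against 24.8, 22.8 and 27.6 CPM in total RNA (log2 ratio -2.57 ± 0.18, adjusted p = 3e-08). Neither overlapped between fractions, and both were chosen for a small p.

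Heat stress transcription factors, the activators of chaperone genes, were higher more often than lower: of 37 genes, 15 were higher and 4 lower (median 0.46, and -0.47 with library totals alone). At a mean of at least 5 CPM the median relative to that of all genes was 0.13, against 0.39, and without 1 library 1 to 4 were lower, with 1 without polysome replicate 6 or total replicate 3. Factor A-6b (Niben101Scf01639g04001.1) had 116, 110.2 and 112 CPM in polysome RNA, against 35.8, 38.7 and 36.4 CPM in total RNA (log2 ratio 1.61 ± 0.15, adjusted p = 2.8e-07). Copies of factor A2, a main amplifier of the response in Arabidopsis, differed. The A2 copy with the most counts (Niben101Scf01777g02001.1) had 488, 578 and 623 CPM in polysome RNA, against 374, 368 and 374 CPM in total RNA (log2 ratio 0.60 ± 0.19, adjusted p = 0.011), and -0.35 with library totals alone. A second A2 copy (Niben101Scf06814g01022.1) had 6.03, 6.65 and 5.35 CPM in polysome RNA, against 15.2, 11.3 and 12.1 CPM in total RNA (log2 ratio -1.10 ± 0.17, adjusted p = 5.5e-05). Among 44 genes of co-chaperones and other heat-response proteins 20 were higher and 11 lower (median 0.40, and -0.55 with library totals alone). All 7 multiprotein-bridging factor genes of that list were higher, with log2 ratios of 0.47 to 3.02, and a median of 0.79, or -0.15 with library totals alone. BAG family regulator 6 (Niben101Scf00447g00019.1), a calmodulin-binding co-chaperone in Arabidopsis, had 7.13, 7.07 and 4.86 CPM in polysome RNA, against 26.03, 28.5 and 27.3 CPM in total RNA (log2 ratio -2.10 ± 0.29, adjusted p = 1.6e-05).

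**Figure D3:**
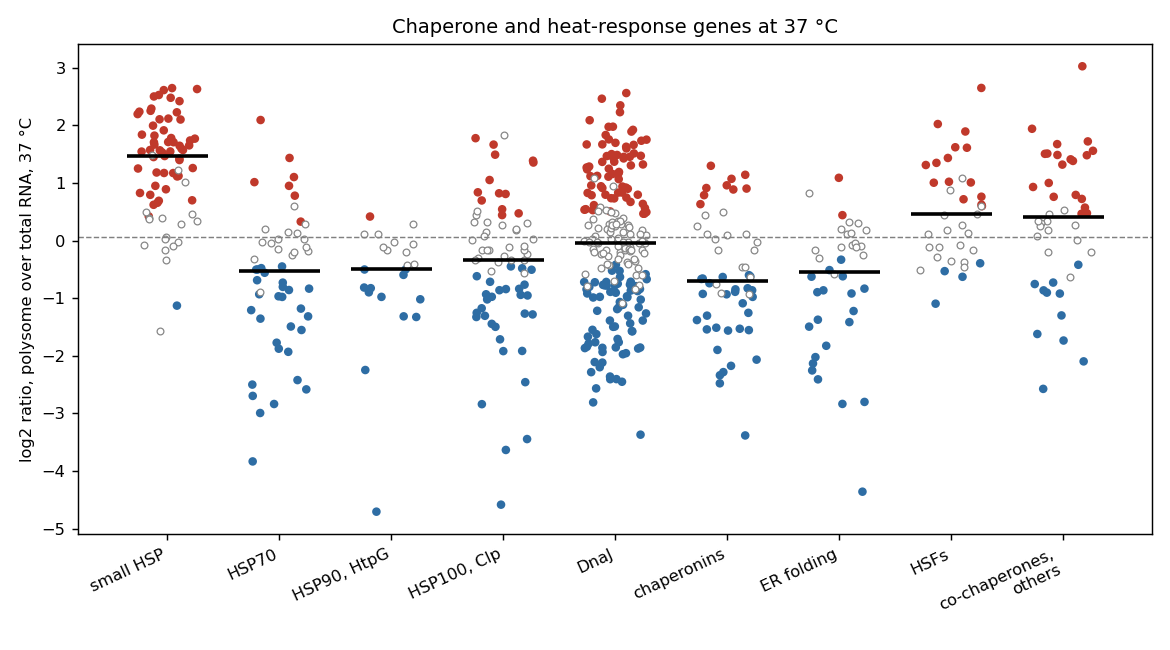
Log2 ratio of polysome over total RNA at 37 °C for each tested gene of 9 chaperone and heat-response lists, with red points higher and blue points lower at an adjusted p below 0.05, open points not called, black bars the list medians and the dashed line the median of all tested genes at 0.07. The small heat shock proteins lie mostly above the line (median 1.47), while HSP70 (-0.53), HSP90 and HtpG (-0.50) and chaperonins (-0.70) have medians below it.

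The translation machinery split between ribosomal proteins and tRNA-charging enzymes. Of 123 genes for proteins of the small cytosolic subunit (40S) 77 were higher and 7 lower (median 0.85, and -0.12 with library totals alone). Of 260 genes for 60S subunit proteins 153 were higher and 21 lower (median 0.80, and -0.16 with library totals alone). The 417 genes for 30S, 50S and other organelle-type ribosomal proteins gave 245 higher and 30 lower (median 0.89, and -0.07 with library totals alone). Leaving out 1 library took the 40S genes called lower to 4 in 5 of 6 cases. The medians of the 3 lists lay above that of all genes, a gap that a change of scaling hardly alters, while the sign depended on the scaling. As parts of a library, the 40S genes held 0.188, 0.205 and 0.206% of counts in polysome RNA, against 0.214, 0.207 and 0.210% in total RNA, ranges that overlapped. The 60S genes held 0.378, 0.438 and 0.442% of counts in polysome RNA, against 0.498, 0.486 and 0.483% in total RNA. The organelle-type genes held 1.01, 1.05 and 1.07% of counts in polysome RNA, against 0.937, 0.917 and 0.912% in total RNA. With all genes counted, the 60S list thus took a smaller part of every polysome library than of any total library. With the most abundant genes left out, the 60S genes held 0.682, 0.74 and 0.746% in polysome RNA, against 0.676, 0.652 and 0.648% in total RNA. The 40S genes then held 0.34, 0.347 and 0.348% in polysome RNA, against 0.29, 0.279 and 0.282% in total RNA. The direction of the 60S share therefore depended on whether the most abundant genes were counted.

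50S ribosomal protein L31 (Niben101Scf06171g00001.1) had 2246, 1620.4 and 1713 CPM in polysome RNA, against 264, 238 and 237 CPM in total RNA (log2 ratio 2.92 ± 0.21, adjusted p = 3.5e-08). 50S protein L28 (Niben101Scf12404g00002.1) had 151, 146 and 153.5 CPM in polysome RNA, against 28.4, 27.1 and 28.4 CPM in total RNA (log2 ratio 2.42 ± 0.14, adjusted p = 9e-09). Copies of the same subunit could differ, as in 40S protein S7. One S7 copy (Niben101Scf04640g04002.1) had 26.6, 30.2 and 24.4 CPM in polysome RNA, against 7.49, 7.41 and 7.49 CPM in total RNA (log2 ratio 1.86 ± 0.16, adjusted p = 1e-07), whereas another (Niben101Scf05545g00003.1) had 6.15, 7.18 and 7.35 CPM in polysome RNA, against 22.4, 21.7 and 20.9 CPM in total RNA (log2 ratio -1.65 ± 0.17, adjusted p = 7.3e-07). The 40S and 60S genes with the most counts also differed. S10-1 (Niben101Scf00369g07017.1) had a log2 ratio of 1.44 ± 0.18 (adjusted p = 6.8e-06), and L10 (Niben101Scf02316g03040.1) had a log2 ratio of -0.25 ± 0.20 (adjusted p = 0.29), which did not pass. 60S protein L22-2 (Niben101Scf04432g04004.1) was higher, with a log2 ratio of 1.92 ± 0.17 (adjusted p = 1.4e-07), and L19-2 (Niben101Scf08334g01005.1) was lower, with a log2 ratio of -1.53 ± 0.16 (adjusted p = 1.2e-06).

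Aminoacyl-tRNA synthetases, the enzymes that charge tRNAs with amino acids, were mostly lower: of 115 genes, 8 were higher and 74 lower (median -0.89). They held 0.0553, 0.0714 and 0.0714% of counts in polysome RNA, against 0.231, 0.239 and 0.243% in total RNA. Without polysome replicate 6 the higher count was 5. Isoleucine--tRNA ligase (Niben101Scf02995g00002.1) had 2.34, 2.53 and 2.74 CPM in polysome RNA, against 20.1, 22.1 and 23.1 CPM in total RNA (log2 ratio -3.10 ± 0.21, adjusted p = 2.2e-08). Glycine--tRNA ligase (Niben101Scf03548g01011.1), the member with the most counts, had 46.5, 43.9 and 38.8 CPM in polysome RNA, against 90.5, 89.9 and 93.5 CPM in total RNA (log2 ratio -1.08 ± 0.21, adjusted p = 0.00042). A phenylalanine--tRNA ligase alpha subunit (Niben101Scf00798g04004.1) was the clearest exception, with 9.84, 6.55 and 5.60 CPM in polysome RNA, against 0.915, 0.444 and 0.852 CPM in total RNA (log2 ratio 3.29 ± 0.37, adjusted p = 2e-06).

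Translation factors were mixed by type. Of 164 initiation factor genes 43 were higher and 63 lower (median -0.23), and of 109 elongation and release factor genes 29 were higher and 40 lower (median -0.09). The factors eIF1, eIF1A and eIF5A counted 12 higher and 0 lower of 15 (median 1.07), and subunits of the eIF3 complex 12 higher and 21 lower of 48 (median -0.29). Initiation factor 1A (Niben101Scf05584g03009.1), which helps the small subunit scan for a start codon, had 127, 156 and 156 CPM in polysome RNA, against 33.6, 35.9 and 36.8 CPM in total RNA (log2 ratio 2.05 ± 0.14, adjusted p = 2.1e-08). Initiation factor 5A-1/2 (Niben101Scf03166g00008.1) had 583, 454 and 419 CPM in polysome RNA, against 177, 171 and 169.8 CPM in total RNA (log2 ratio 1.49 ± 0.16, adjusted p = 1e-06). The bacterial-type initiation factor IF-2 (Niben101Scf00181g00004.1) had 4.43, 6.76 and 8.59 CPM in polysome RNA, against 35.6, 36.7 and 37.7 CPM in total RNA (log2 ratio -2.47 ± 0.19, adjusted p = 5.5e-08). Among elongation factors, EF-Ts (Niben101Scf11767g01009.1) was higher, with a log2 ratio of 2.14 ± 0.17 (adjusted p = 8.8e-08), and so was EF-1-alpha (Niben101Scf08618g01012.1), which brings tRNAs to the ribosome, with a log2 ratio of 0.72 ± 0.14 (adjusted p = 0.00039) but -0.25 with library totals alone. Elongation factor 2 (Niben101Scf05664g04011.1), the translocase, was lower, with 1.35, 1.48 and 2.12 CPM in polysome RNA, against 17.6, 19.3 and 19.97 CPM in total RNA (log2 ratio -3.52 ± 0.30, adjusted p = 1.2e-07).

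Assembly of ribosomes in the nucleolus was represented by 118 genes, of which 20 were higher and 59 lower (median -0.72). Nucleolar GTP-binding protein 2 (Niben101Scf01959g07012.1) had 5.66, 6.55 and 4.98 CPM in polysome RNA, against 42.8, 41.6 and 43.4 CPM in total RNA (log2 ratio -2.89 ± 0.16, adjusted p = 8.9e-09), with no overlap. A TLD-domain nucleolar protein (Niben101Scf02268g00010.1) had a log2 ratio of 1.30 ± 0.15 (adjusted p = 1.9e-06), and U3 small nucleolar RNA-associated protein 14 (Niben101Scf04504g01010.1) had a log2 ratio of 1.16 ± 0.16 (adjusted p = 1.4e-05).

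Nuclear genes for photosynthesis had some of the largest list medians. Of 74 genes for chlorophyll a-b binding proteins, the light-harvesting antenna, 69 were higher and 0 lower (median 1.79), and they took 17.8, 14.8 and 14.5% of counts in polysome RNA, against 9.41, 8.98 and 9.17% in total RNA. Of 82 nuclear genes for photosystem subunits 69 were higher and 0 lower (median 1.52), with 11.8% to 12.5% of counts in polysome RNA, against 7.26% to 7.61% in total RNA. Together these antenna and photosystem genes took a larger part of each polysome library than of any total library. Chlorophyll a-b binding protein 37 (Niben101Scf02852g02007.1) had 24091, 14984 and 14601 CPM in polysome RNA, against 2787, 2663 and 2663 CPM in total RNA (log2 ratio 2.73 ± 0.26, adjusted p = 3.2e-07). Chlorophyll a-b binding protein P4 (Niben101Scf25021g01016.1) had 708, 502 and 489.5 CPM in polysome RNA, against 105, 96.1 and 98.9 CPM in total RNA (log2 ratio 2.50 ± 0.17, adjusted p = 2e-08). The psaK subunit of photosystem I (Niben101Scf05824g13008.1) had 9338, 6575 and 6641 CPM in polysome RNA, against 1105, 1027 and 1013.0 CPM in total RNA (log2 ratio 2.84 ± 0.18, adjusted p = 1.4e-08). Polysome replicate 5 was the highest library in each. The 10 kDa polypeptide of photosystem II (Niben101Scf01116g01004.1) had a log2 ratio of 2.24 ± 0.20 (adjusted p = 1.9e-07).

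Rubisco, the carbon-fixing enzyme, behaved differently by scale. All 11 small chain genes and 4 of 7 activase genes were higher, with medians of 1.28 and 0.60 (the second -0.37 with library totals alone). The list held 5.93, 6.44 and 6.23% of counts in polysome RNA, against 6.15, 5.91 and 5.83% in total RNA, ranges that overlapped, and its common median was -0.16 with library totals alone. Small chain 8B (Niben101Scf03015g06015.1) had 17798, 16242 and 14589 CPM in polysome RNA, against 10411, 9710.5 and 9523 CPM in total RNA (log2 ratio 0.71 ± 0.17, adjusted p = 0.0021), and -0.26 with library totals alone. Another small chain gene (Niben101Scf04196g00005.1) had 12627, 11252 and 11468 CPM in polysome RNA, against 2804, 2623 and 2573 CPM in total RNA (log2 ratio 2.14 ± 0.19, adjusted p = 1.6e-07). Antenna and small chain transcripts are markers of the green cells of a leaf, the labelled tissue, and their shares above show them at high counts in each library at 37 °C.

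**Figure D4:**
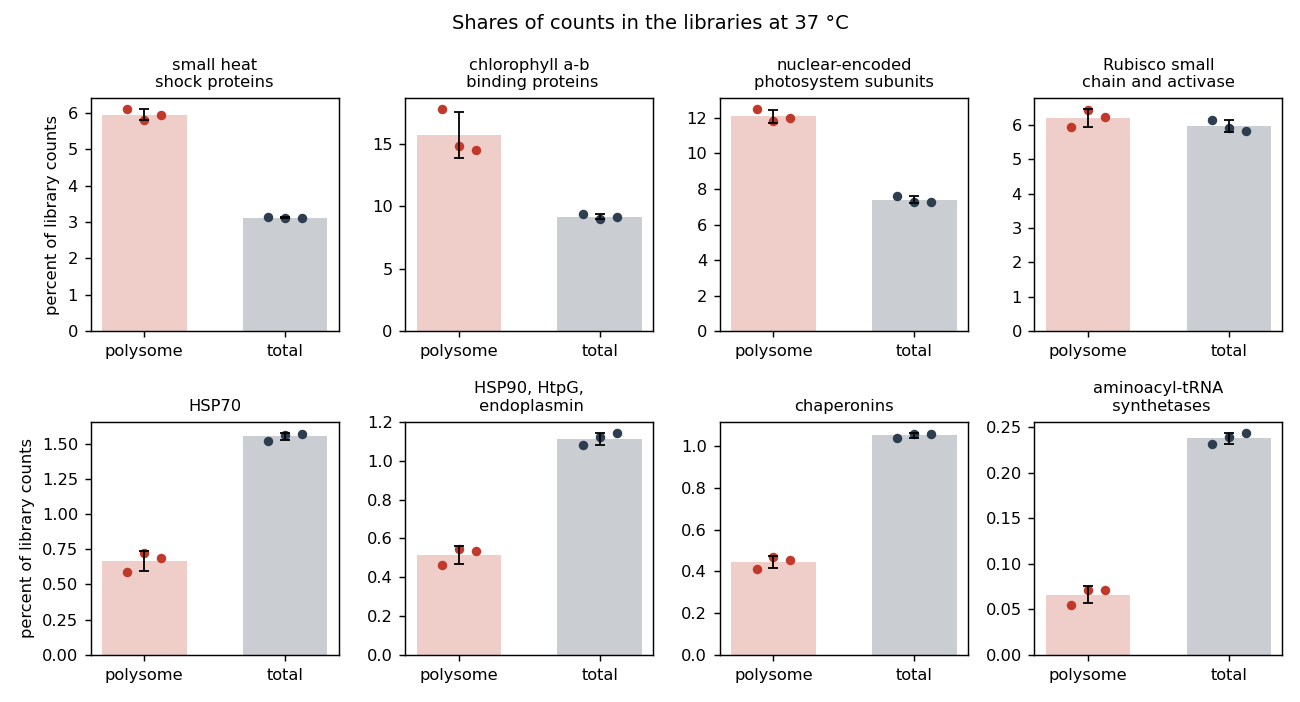
Percent of library counts held by 8 gene lists at 37 °C, with points for the 3 polysome and 3 total libraries, bars their means and error bars the SD. Small heat shock proteins, antenna proteins and photosystem subunits take more of each polysome library, Rubisco small chain and activase overlap, and HSP70, HSP90 and HtpG, chaperonins and aminoacyl-tRNA synthetases take less.

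Transcripts of the kind encoded in organelle genomes are translated on organelle ribosomes, and nuclear copies of such sequences occur in plant genomes. Of 141 genes annotated with plastid-genome products 10 were higher and 8 lower at 37 °C, and 123 were not called, at a median of 0.97. With library totals alone the median was 0.00, with 0 higher and 13 lower, and without 1 total library 5 to 6 were higher. The list held 0.0640, 0.0479 and 0.0529% of counts in polysome RNA, against 0.0513, 0.0564 and 0.0520% in total RNA. The test takes the spread of a gene from all 12 libraries, and mock total replicates 6 and 7 stood apart in plastid transcripts. Standard errors at 37 °C thus also hold spread from 23 °C, and a gene not called need not overlap. Cytochrome b559 subunit alpha (Niben101Scf03236g02005.1) had 8.48, 6.65 and 8.09 CPM in polysome RNA, against 3.55, 3.80 and 3.65 CPM in total RNA (log2 ratio 1.07 ± 0.73, adjusted p = 0.22). Rubisco large chain (Niben101Scf11178g01008.1) had 135, 59.2 and 64.99 CPM in polysome RNA, against 18.2, 21.5 and 19.97 CPM in total RNA (log2 ratio 2.12 ± 0.73, adjusted p = 0.02). Polysome replicate 5 stood apart at 135 CPM, and without it the log2 ratio was 1.64 (adjusted p = 0.1). The call was also lost without any 1 of the total libraries (adjusted p = 0.051 to 0.062). A second copy (Niben101Scf00173g09004.1) had 128, 56.6 and 64.7 CPM in polysome RNA, against 21.3, 21.5 and 17.9 CPM in total RNA (log2 ratio 2.04 ± 0.73, adjusted p = 0.024), and 1.58 without that library (adjusted p = 0.11). ATP synthase subunit a (Niben101Scf09870g00016.1) had a log2 ratio of 1.17 ± 0.15 (adjusted p = 6.5e-06), and photosystem I assembly protein Ycf3 (Niben101Scf07850g08003.1) had 0.861, 0.739 and 0.871 CPM in polysome RNA, against 10.3, 10.9 and 11.5 CPM in total RNA (log2 ratio -3.72 ± 0.24, adjusted p = 1.6e-08). Of 29 genes with mitochondrial-genome products 11 were higher and 0 lower (median 1.35). With library totals alone 1 was higher (median 0.39), and without 1 library at 37 °C 8 to 10 were higher. Cytochrome c oxidase subunit 2 (Niben101Scf03138g01013.1) had a log2 ratio of 1.95 ± 0.38 (adjusted p = 0.00041).

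Among nuclear functions, histones were mostly higher, and genes of splicing, RNA helicases and RNA silencing mostly lower. Of 97 histone genes 74 were higher and 2 lower (median 1.79), and they took 0.298, 0.319 and 0.329% of counts in polysome RNA, against 0.198, 0.186 and 0.193% in total RNA. Core histones H2B, H3 and H4 had medians of 2.07, 2.02 and 2.14, and H1 linker histones 0.49, or -0.48 with library totals alone. Histone H2B (Niben101Scf02182g02007.1) had 1098, 892 and 971 CPM in polysome RNA, against 201.3, 198 and 203 CPM in total RNA (log2 ratio 2.30 ± 0.25, adjusted p = 1.2e-06). Histone H1 (Niben101Scf03735g06006.1) had 82.3, 81.7 and 89.9 CPM in polysome RNA, against 21.1, 20.1 and 19.7 CPM in total RNA (log2 ratio 2.06 ± 0.15, adjusted p = 3.6e-08). The polysome libraries were the higher in both. A linker histone H1 and H5 family gene (Niben101Scf02618g03010.1) with 5 polysome counts above the lowest had a log2 ratio of -1.93 ± 0.48 (adjusted p = 0.0027).

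Of 222 splicing genes 46 were higher and 118 lower (median -0.67). Within that list the Sm and other small nuclear ribonucleoprotein genes went the other way, with 30 higher and 20 lower of 63 (median 0.37, and -0.59 with library totals alone), whereas the serine/arginine-rich genes counted 4 higher and 21 lower of 41 (median -0.58). Splicing factor 8 (Niben101Scf03492g01004.1), the large protein at the core of the spliceosome, had 7.13, 5.17 and 7.97 CPM in polysome RNA, against 38.6, 43.7 and 41.3 CPM in total RNA (log2 ratio -2.61 ± 0.18, adjusted p = 2e-08). The small ribonucleoprotein Sm D1 (Niben101Scf01782g05006.1) had 23.7, 21.2 and 24.7 CPM in polysome RNA, against 4.75, 5.89 and 4.26 CPM in total RNA (log2 ratio 2.22 ± 0.16, adjusted p = 3.2e-08). Serine/arginine-rich splicing factor 9 (Niben101Scf00154g05017.1) had a log2 ratio of 0.97 ± 0.20 (adjusted p = 0.0006), and -0.02 with library totals alone. RNA helicases, which unwind RNA in many steps of its life, were mostly lower: of 175 genes, 18 were higher and 98 lower (median -0.87). Helicase DBP9 (Niben101Scf01395g03001.1) had 1.35, 0.633 and 1.99 CPM in polysome RNA, against 17.2, 19.2 and 22.1 CPM in total RNA (log2 ratio -3.90 ± 0.26, adjusted p = 1.8e-08). DED1 (Niben101Scf04633g00010.1), a helicase of translation initiation in yeast, had a log2 ratio of -0.14 ± 0.17 (adjusted p = 0.49) and overlapped between fractions. A DEA(D/H)-box helicase (Niben101Scf05708g00005.1) was higher, with a log2 ratio of 1.46 ± 0.14 (adjusted p = 4.9e-07).

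RNA silencing genes had the lowest list median: of 49 genes, 1 was higher and 37 lower (median -1.14). Argonaute 1B (Niben101Scf08137g02022.1), which carries small RNAs to their targets, had 14.5, 9.71 and 14.1 CPM in polysome RNA, against 69.96, 69.1 and 72.6 CPM in total RNA (log2 ratio -2.47 ± 0.20, adjusted p = 9.4e-08). All its polysome libraries lay below its total libraries, and 16 of 23 argonaute genes were lower with none higher. The member called higher was double-stranded RNA-binding protein 4 (Niben101Scf07054g04012.1), with 23.5, 43.1 and 50.4 CPM in polysome RNA, against 14.2, 13.2 and 13.5 CPM in total RNA (log2 ratio 1.51 ± 0.23, adjusted p = 3.3e-05). Of 82 genes for glycine-rich RNA-binding and stress granule proteins 24 were higher and 37 lower (median -0.29). Polyadenylate-binding protein 1 (Niben101Scf06344g01021.1), which coats poly(A) tails, had 224, 253 and 242 CPM in polysome RNA, against 597, 581 and 594 CPM in total RNA (log2 ratio -1.30 ± 0.13, adjusted p = 8.2e-07). Polyadenylate-binding protein 7 (Niben101Scf06793g00006.1) had a log2 ratio of -1.64 ± 0.16 (adjusted p = 4.2e-07), while glycine-rich RNA-binding protein 3 (Niben101Scf09268g00007.1) had a log2 ratio of 1.34 ± 0.15 (adjusted p = 2.5e-06). Pentatricopeptide repeat proteins, which process organelle RNAs, counted 71 higher and 172 lower of 543 (median -0.35). These are 13.1% and 31.7%, beside 30.8% and 28.4% of all genes. Their log2 ratio was 2.35 ± 0.21 (adjusted p = 2.1e-07) in Niben101Scf01008g02010.1 and -1.83 ± 0.17 (adjusted p = 2.2e-07) in Niben101Scf05230g00001.1.

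Regulators of growth and stress differed by family. Of 149 genes of ethylene response and DREB factors 69 were higher and 18 lower (median 0.81, and -0.15 with library totals alone). Ethylene-responsive factor 4 (Niben101Scf00872g03005.1) had 203, 187 and 191 CPM in polysome RNA, against 37.1, 39.1 and 41.04 CPM in total RNA (log2 ratio 2.31 ± 0.15, adjusted p = 1.5e-08). Factor 1 (Niben101Scf00870g05003.1) had a log2 ratio of 0.56 ± 0.17 (adjusted p = 0.009), and -0.41 with library totals alone, and an AP2-like factor (Niben101Scf01035g04005.1) had a log2 ratio of -2.41 ± 0.32 (adjusted p = 9.7e-06). In the auxin response list 93 were higher and 29 lower of 177 genes (median 0.97, and 0.00 with library totals alone). The SAUR genes counted 61 higher and 0 lower of 73 (median 1.94), the Aux/IAA repressors 23 higher and 1 lower of 39 (median 1.21) and the auxin response factors 2 higher and 27 lower of 50 (median -0.81). A SAUR gene (Niben101Scf02071g02002.1) had 75.99, 69.4 and 74.7 CPM in polysome RNA, against 14.1, 13.9 and 16.8 CPM in total RNA (log2 ratio 2.29 ± 0.15, adjusted p = 1.5e-08). Auxin response factor 3 (Niben101Scf11552g00015.1) had 10.9, 11.7 and 9.09 CPM in polysome RNA, against 35.8, 33.6 and 34.1 CPM in total RNA (log2 ratio -1.70 ± 0.18, adjusted p = 8.7e-07).

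Clock and light genes were mostly lower: of 53 genes, 4 were higher and 33 lower (median -1.03). EARLY FLOWERING 3 (Niben101Scf04675g02001.1), a clock component that also senses temperature in Arabidopsis, had 4.43, 4.43 and 6.35 CPM in polysome RNA, against 48.8, 53.9 and 55.3 CPM in total RNA (log2 ratio -3.38 ± 0.19, adjusted p = 8.9e-09). Cryptochrome-1 (Niben101Scf01167g05010.1), a blue light receptor, had 83.9, 61.97 and 56.02 CPM in polysome RNA, against 163, 164 and 160.3 CPM in total RNA (log2 ratio -1.27 ± 0.20, adjusted p = 5.4e-05). A phytochrome A-associated F-box protein (Niben101Scf03405g02004.1) was higher, with a log2 ratio of 1.25 ± 0.19 (adjusted p = 4.3e-05).

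NAC factors had shares near or below those of all genes: of 95 genes, 28 were higher and 17 lower, or 29.5% and 17.9% (median 0.08, and -0.86 with library totals alone). NAC protein 72 (Niben101Scf14516g00019.1), a stress regulator in Arabidopsis, had 497, 522 and 550.3 CPM in polysome RNA, against 125, 125 and 127 CPM in total RNA (log2 ratio 2.06 ± 0.22, adjusted p = 1.3e-06). NAC protein 83 (Niben101Scf05078g00004.1) had a log2 ratio of 1.80 ± 0.19 (adjusted p = 8e-07), and NAC protein 78 (Niben101Scf00792g03002.1) had a log2 ratio of -1.61 ± 0.23 (adjusted p = 1.8e-05). Of 76 WRKY factors, regulators of defence, 12 were higher and 25 lower (median -0.30). WRKY 93 (Niben101Scf00643g01001.1) had a log2 ratio of -2.53 ± 0.26 (adjusted p = 6.8e-07), a WRKY 1 copy (Niben101Scf01833g00002.1) had a log2 ratio of 2.29 ± 0.26 (adjusted p = 2e-06), and the WRKY gene with the most counts, also annotated WRKY 1 (Niben101Scf02362g02014.1), overlapped between fractions at a log2 ratio of -0.10 ± 0.16 (adjusted p = 0.61). The bHLH list counted 30 higher and 18 lower of 88 (median 0.28, and -0.66 with library totals alone), and the MYB list 50 and 35 of 187 (median 0.25, and -0.70 with library totals alone). The MYB gene with the most counts (Niben101Scf03993g06007.1) had 305, 341 and 333 CPM in polysome RNA, against 195, 192 and 179 CPM in total RNA (log2 ratio 0.79 ± 0.20, adjusted p = 0.003), and -0.16 with library totals alone.

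Receptors of both kinds were higher less often than genes at large, at 14.4% of receptor-like kinases and 8.4% of disease resistance genes, against 30.8% of all genes; these shares are descriptions, with no test between them. Of 722 receptor-like kinases, which sense ligands at the cell surface, 104 were higher and 226 lower (median -0.24). Receptor-like protein kinase HSL1 (Niben101Scf00168g10016.1) had 81.8, 69.8 and 56.8 CPM in polysome RNA, against 171, 178 and 187 CPM in total RNA (log2 ratio -1.36 ± 0.18, adjusted p = 8.7e-06), and receptor-like protein kinase 5 (Niben101Scf00133g06001.1) had a log2 ratio of -2.74 ± 0.19 (adjusted p = 2.3e-08). A G-type lectin receptor kinase (Niben101Scf00031g01005.1) was higher, with a log2 ratio of 1.26 ± 0.15 (adjusted p = 2.9e-06). Of 95 intracellular disease resistance genes 8 were higher and 35 lower (median -0.68). The higher count was 3 without polysome replicate 6, total replicate 2 or total replicate 3, and 5 without polysome replicate 5. The member with the most counts, of the TIR-NBS-LRR class (Niben101Scf06736g08001.1), had 17.8, 20.9 and 25.1 CPM in polysome RNA, against 60.7, 65.6 and 65.03 CPM in total RNA (log2 ratio -1.58 ± 0.21, adjusted p = 1.2e-05). In these 2 groups the genes with the most counts had all polysome libraries below all total libraries.

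Genes of protein degradation were mixed by subunit. Of 114 proteasome genes 69 were higher and 18 lower (median 0.75, and -0.23 with library totals alone). The alpha and beta subunits of the core counted 44 higher and 1 lower of 53 (median 1.06). The 26S regulatory subunits counted 14 higher and 12 lower of 43, near the shares of all genes (median 0.19, and -0.79 with library totals alone). The proteasome maturation protein homolog (Niben101Scf11232g00020.1), an assembly factor, had 93.6, 78.5 and 84.9 CPM in polysome RNA, against 15.96, 15.7 and 14.7 CPM in total RNA (log2 ratio 2.47 ± 0.16, adjusted p = 1.7e-08). Proteasome activator subunit 4 (Niben101Scf08182g01002.1), a very large cap protein, had 1.23, 1.48 and 1.24 CPM in polysome RNA, against 14.1, 15.8 and 15.04 CPM in total RNA (log2 ratio -3.49 ± 0.21, adjusted p = 1.2e-08). The PI31 inhibitor subunit (Niben101Scf03147g07002.1) had a log2 ratio of 1.15 ± 0.24 (adjusted p = 0.00072). Of 923 genes of F-box proteins and E3 ligases 312 were higher and 223 lower (median 0.23, and -0.74 with library totals alone). These are 33.8% and 24.2%, beside 30.8% and 28.4% of all genes. EIN3-binding F-box protein 1 (Niben101Scf14688g00005.1), which targets ethylene regulators, had 612, 572 and 534 CPM in polysome RNA, against 249.9, 242 and 237 CPM in total RNA (log2 ratio 1.24 ± 0.16, adjusted p = 5.8e-06). SINA-like 10 (Niben101Scf05733g00005.1) had a log2 ratio of 1.99 ± 0.14 (adjusted p = 2.2e-08), and a C3HC4 RING finger gene (Niben101Scf04567g03029.1) had a log2 ratio of -2.96 ± 0.20 (adjusted p = 1.8e-08).

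Lipid-transfer proteins, aquaporins and GDSL esterases were higher more often than genes at large, while pathogenesis-related proteins were not. Of 75 genes of GASA peptides and lipid-transfer proteins 63 were higher and 0 lower (median 2.04), with 0.563, 0.512 and 0.534% of counts in polysome RNA, against 0.199, 0.197 and 0.196% in total RNA. Of 59 aquaporins, the water channels, 48 were higher and 0 lower (median 1.57), and they held 0.682, 0.597 and 0.578% of counts in polysome RNA, against 0.423, 0.437 and 0.448% in total RNA. The aquaporin with the most counts (Niben101Scf02576g00011.1) had 4449, 3091 and 2778 CPM in polysome RNA, against 1290.3, 1311 and 1316 CPM in total RNA (log2 ratio 1.40 ± 0.19, adjusted p = 1.1e-05). An aquaporin-like gene with a smaller p (Niben101Scf11790g01008.1) had a log2 ratio of 2.33 ± 0.17 (adjusted p = 4.1e-08). GDSL esterases and lipases counted 40 higher and 4 lower of 78 (median 1.11), with a log2 ratio of 1.85 ± 0.17 (adjusted p = 2.5e-07) in Niben101Scf03023g03008.1 and a log2 ratio of -1.46 ± 0.26 (adjusted p = 0.00018) in Niben101Scf00067g01010.1.

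Wall-modifying enzymes (expansins, xyloglucan and pectin enzymes) counted 83 higher and 19 lower of 208 (median 0.64, and -0.31 with library totals alone). Xyloglucan endotransglucosylase/hydrolase 9 (Niben101Scf02990g05004.1), which cuts and rejoins wall xyloglucan, had 829.8, 705 and 702 CPM in polysome RNA, against 163, 157 and 159.7 CPM in total RNA (log2 ratio 2.22 ± 0.27, adjusted p = 3.8e-06). A pectin lyase-like gene (Niben101Scf03709g03009.1) had a log2 ratio of -2.08 ± 0.27 (adjusted p = 6.7e-06). Class III peroxidases, which act on the wall and on hydrogen peroxide, counted 18 higher and 2 lower of 40 (median 0.84, and -0.12 with library totals alone). Peroxidase 42 (Niben101Scf03507g05007.1) and peroxidase 60 (Niben101Scf01991g05014.1) went opposite ways. Peroxidase 42 had 474, 316 and 308 CPM in polysome RNA, against 77.8, 73.8 and 79.8 CPM in total RNA (log2 ratio 2.25 ± 0.21, adjusted p = 3.2e-07), and peroxidase 60 had 5.16, 7.50 and 10.2 CPM in polysome RNA, against 60.5, 61.3 and 60.3 CPM in total RNA (log2 ratio -2.99 ± 0.24, adjusted p = 6.8e-08). Pathogenesis-related proteins and chitinases counted 34 higher and 20 lower of 109 (median 0.31, and -0.63 with library totals alone). That is 31.2% higher, beside 30.8% of all genes, and at a mean of at least 5 CPM the median relative to that of all genes was -0.09, against 0.24. Chitinase-like protein 1 (Niben101Scf03036g03023.1) had 624, 562 and 504 CPM in polysome RNA, against 221, 226 and 231 CPM in total RNA (log2 ratio 1.32 ± 0.17, adjusted p = 7.3e-06).

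Upstream open reading frames can hold ribosomes back from the main frame. Of 10 tested genes annotated as homologs of Arabidopsis genes known for them 5 were higher and 2 lower (median 0.68, and -0.30 with library totals alone). GDP-L-galactose phosphorylase 1 (Niben101Scf00161g05002.1), of vitamin C synthesis, had 835, 584 and 598 CPM in polysome RNA, against 216, 209.7 and 212 CPM in total RNA (log2 ratio 1.66 ± 0.16, adjusted p = 3.5e-07). S-adenosylmethionine decarboxylase (Niben101Scf04126g05024.1), of polyamine synthesis, had 17.8, 21.5 and 22.7 CPM in polysome RNA, against 33.01, 31.5 and 35.6 CPM in total RNA (log2 ratio -0.69 ± 0.14, adjusted p = 0.0007).

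Markers of other cell types were few in counts. The floral and meristem list held 0.0587, 0.0814 and 0.0834% of counts in polysome RNA, against 0.0820, 0.0835 and 0.0802% in total RNA, and 33 were higher and 1 lower of 58 (median 0.92, and -0.02 with library totals alone). The vascular list held 0.0427, 0.0557 and 0.0620% of counts in polysome RNA, against 0.0557, 0.0581 and 0.0557% in total RNA, and 4 were higher and 4 lower of 37 (median 0.04, and -0.94 with library totals alone). The epidermis and cuticle list held 0.0218, 0.0232 and 0.0233% of counts in polysome RNA, against 0.0293, 0.0311 and 0.0323% in total RNA, and 6 were higher and 0 lower of 19 (median 0.56, and -0.41 with library totals alone). Homeobox protein knotted-1-like 3 (Niben101Scf09454g00008.1) had a log2 ratio of 0.84 ± 0.16 (adjusted p = 0.00028), and -0.11 with library totals alone. Phloem protein 2-like A9 (Niben101Scf09560g00003.1) had 65.2, 104 and 118 CPM in polysome RNA, against 19.6, 20.9 and 21.7 CPM in total RNA (log2 ratio 2.20 ± 0.20, adjusted p = 2.4e-07), and laccase-3 (Niben101Scf06942g02033.1), which polymerises lignin, had a log2 ratio of -3.24 ± 0.33 (adjusted p = 6.3e-07). 3-ketoacyl-CoA synthase 6 (Niben101Scf10780g00002.1), of cuticular wax, had a log2 ratio of 1.34 ± 0.17 (adjusted p = 6.2e-06). The part of these cells in the other results was not tested.

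Protein length could be read for 8369 of the tested genes, whose annotation gives the length of the homolog. That is 24.4% of them. Within the lists it was 0% to 81.4%, and at least 80% in the aquaporin list alone, so a check by length is void for the other 47 lists, and the values describe those genes alone. The median log2 ratio at 37 °C was 1.52 for homologs of up to 100 residues (136 genes), 1.25 for over 100 to 200 (890 genes), 0.42 for over 200 to 400 (2787 genes), -0.25 for over 400 to 800 (3578 genes) and -1.14 for over 800 residues (978 genes). In the shortest class 109 genes were higher and 3 lower, and in the longest 46 were higher and 652 lower. Within each part of the genes ranked by mean CPM (lowest, middle and highest), the medians ran from 1.40, 1.41 and 1.70 in the shortest class to -0.92, -1.34 and -1.12 in the longest. The medians at 23 °C were 1.57, 0.81, 0.15, -0.18 and -0.60 in the same order of classes. Transcript length was not analysed here, and its part was not tested.

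**Figure D5:**
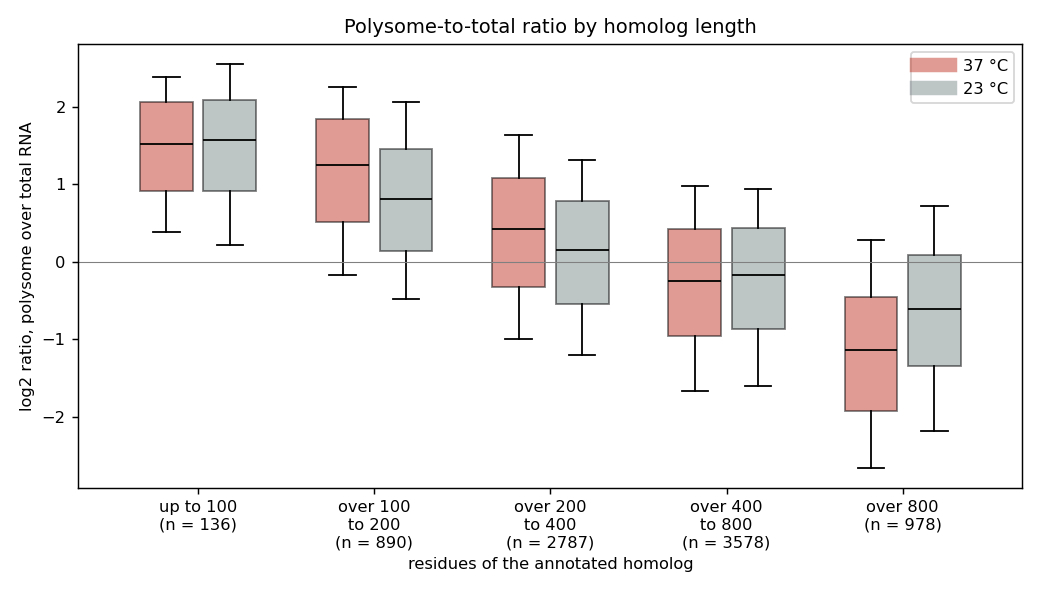
Log2 ratio of polysome over total RNA by residues of the annotated homolog, in 5 length classes, for 37 °C (left box) and 23 °C (right box); boxes span the quartiles with the median, and whiskers the 10th to 90th percentiles. At 37 °C the medians go down from 1.52 in the shortest class to -1.14 in the longest, and at 23 °C from 1.57 to -0.60.

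The same ratio was measured at 23 °C, so that the difference between temperatures could be tested. There 9275 genes (27% of those tested) were higher and 9327 (27.2%) lower, with 3 libraries in each fraction. Of the genes higher at 37 °C, 6716 were also higher at 23 °C, which is 63.6% of those at 37 °C and 72.4% of those at 23 °C. Of the genes lower at 37 °C, 6260 were also lower at 23 °C, or 64.3% of those at 37 °C and 67.1% of those at 23 °C. Opposite calls were made for 348 genes higher at 37 °C and lower at 23 °C and for 290 genes lower at 37 °C and higher at 23 °C. Tested directly, the ratio was larger at 37 °C than at 23 °C for 3502 genes (10.2%) and smaller for 2891 (8.42%). With library totals alone these counts were 1678 and 4278. Without mock total replicates 6 and 7, which stand apart in plastid transcripts, 1471 were larger and 1094 smaller. That fit keeps 1 mock total library and takes its spread from the other groups, so a call missing there does not show that a difference rests on the 2 libraries. Counts without heat total replicate 3 were 2291 and 1965, and without heat total replicate 4 they were 2304 and 1968.

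Among lists of nuclear genes, the antenna genes had the largest share of such differences: the ratio was larger at 37 °C for 41 of 74 chlorophyll a-b binding genes and smaller for none, with a median difference of 0.88. Without mock total replicates 6 and 7 it was larger for 25. The nuclear photosystem subunits had 28 of 82 larger and 2 smaller, and 17 larger and 1 smaller without those libraries. Small heat shock proteins had 14 of 75 larger and none smaller, with a median difference of 0.98, and of 0.80 without those libraries. At 23 °C this family held at most 0.0562% of the counts of a library, and its median log2 ratio was 0.51. The fit returned the same 0.51 for the 22.7 kDa gene named above, which was at the lowest count in all libraries at 23 °C. That value is no measured ratio, so the size of the family's median difference is uncertain. Proteasome genes had 30 of 114 larger and 5 smaller, and 15 and 3 without those libraries. Histones had 23 of 97 larger and none smaller, but 3 without those libraries. Their median difference was 0.65 with all libraries and 0.38 without those. HSP90, HtpG and endoplasmin had 8 of 23 smaller and none larger, and none of either without those libraries, at a median difference of -0.52 with all libraries and -0.60 without those. Cytosolic ribosomal proteins had medians of the difference of 0.08 and 0.05 for the 40S and 60S lists, near the 0.07 of all genes, with 10 and 8 of the 40S genes and 19 and 17 of the 60S genes larger and smaller.

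The genes with the largest differences were led by plastid transcripts, whose differences were far smaller without mock total replicates 6 and 7. The Rubisco large chain genes named above had differences of 4.64 ± 1.03 (adjusted p = 0.0067) and 4.56 ± 1.03 (adjusted p = 0.0072). Without mock total replicates 6 and 7 these were 0.74 and 0.59 (adjusted p = 0.52 and 0.61). Cytochrome b559 subunit alpha, a photosystem II protein, gave 4.37 ± 1.00 (adjusted p = 0.0078) in Niben101Scf03236g02005.1 and 4.35 ± 1.01 (adjusted p = 0.0083) in Niben101Scf11178g01005.1, and 0.65 and 0.34 without those libraries (adjusted p = 0.44 and 0.71). At 23 °C the plastid list held 0.113%, 0.252% and 0.0721% of counts in polysome RNA, against 0.101%, 1.47% and 1.46% in total RNA, so that mock total replicates 6 and 7 were the high ones. Of the plastid list 44 genes had a larger ratio at 37 °C and 2 a smaller one, and without those libraries 1 and 1. Of the mitochondrial list 15 had a larger ratio, and without those libraries none did. Cytochrome c oxidase subunit 2, of that list, differed by 1.84 ± 0.58 (adjusted p = 0.037), and by -0.10 without those libraries (adjusted p = 0.95).

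The other 8 of the largest differences were of -3.72 to -2.52 and 4.29 to 4.48 without those libraries, all in the same direction, and 7 of them passed the test with the single mock total library left. GTPase Der (Niben101Scf39490g00008.1), a ribosome-assembly GTPase in bacteria, had at 37 °C 11.4, 10.3 and 6.97 CPM in polysome RNA, against 20.3, 20.8 and 21.8 CPM in total RNA (log2 ratio -1.13 ± 0.18, adjusted p = 4.8e-05). At 23 °C it had 0.285, 0.305 and 0.336 CPM in polysome RNA, against 15.5, 16.03 and 12.9 CPM in total RNA, and the difference was 4.42 ± 0.35 (adjusted p = 2.2e-05). Its polysome level was thus nearer to its total level at 37 °C. A glucan endo-1,3-beta-glucosidase 7 (Niben101Scf04778g02018.1), a callose-degrading enzyme, had 7.75, 3.27 and 3.24 CPM in polysome RNA, against 8.41, 10.96 and 11.2 CPM in total RNA at 37 °C (log2 ratio -1.11 ± 0.28, adjusted p = 0.0029). Its 3 polysome libraries at 23 °C were at the lowest count, at least 51.3-fold lower than total RNA there against 3 counts over the group, and the difference was 4.45 ± 0.66 (adjusted p = 0.00065).

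Of the largest negative differences, ATP-dependent RNA helicase A (Niben101Scf03550g00021.1) had at 37 °C 3.57, 5.91 and 5.60 CPM in polysome RNA, against 47.5, 47.8 and 50.1 CPM in total RNA (log2 ratio -3.26 ± 0.28, adjusted p = 1.4e-07). At 23 °C it had 27.3, 25.9 and 22.7 CPM in polysome RNA, against 37.3, 26.01 and 14.9 CPM in total RNA, and the difference was -3.22 ± 0.37 (adjusted p = 0.00018). Its fractions overlapped at 23 °C and lay apart at 37 °C. Chromodomain-helicase-DNA-binding protein 8 (Niben101Scf04090g02014.1), a chromatin remodeller, differed by -3.26 ± 0.40 (adjusted p = 0.00025), with 0.861, 0.845 and 1.12 CPM in polysome RNA, against 15.8, 16.3 and 15.8 CPM in total RNA at 37 °C. Phosphoadenosine phosphosulfate reductase (Niben101Scf00327g00011.1), of sulfur assimilation, differed by -3.22 ± 0.34 (adjusted p = 0.00012), with 2.09, 2.32 and 2.99 CPM in polysome RNA, against 7.61, 9.06 and 10.2 CPM in total RNA at 37 °C. An outer arm dynein light chain 1 protein (Niben101Scf01395g05008.1) differed by -3.20 ± 0.36 (adjusted p = 0.00015), and its ratio at 37 °C (log2 ratio -0.71 ± 0.25, adjusted p = 0.024) was -0.55 to -0.72 without polysome replicate 5 or 6 or total replicate 3 or 4, each of which ended the call (adjusted p = 0.051 to 0.11). A U3snoRNP10 and NUC211 domain gene (Niben101Scf03809g00009.1), of ribosome biogenesis, differed by -3.01 ± 0.36 (adjusted p = 0.00023). Nuclear pore protein Nup98-Nup96 (Niben101Scf02714g06023.1) differed by -3.33 ± 0.81 (adjusted p = 0.011), and by -2.68 without mock total replicates 6 and 7 (adjusted p = 0.091).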

How the data were processed

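Polysome RNA and total RNA of leaves were sequenced in 12 libraries, 3 for each RNA and temperature. Per the submitters' processing notes, HTSeq 0.11.0, HISAT2, DESeq and cutadapt were used, with no role stated, and a genome build was not given in the sources used here. The deposited table holds whole-number counts per gene with a lowest value of 1 in every library, a normalized signal per gene and the authors' log2 fold changes. Results rest on the deposited counts alone, and the authors' other values were not used for any result. The sources used here do not say whether 1 was added to all counts or replaced zeros, so CPM of a few counts are uncertain by up to 1 count a library. The table had 2 empty lines, which were left out.

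Counts were tested with edgeR 4.0.16 (filterByExpr with a minimum count of 10, TMM scaling, quasi-likelihood test with 1 mean per group over 12 libraries, Benjamini-Hochberg adjustment, threshold 0.05). The standard error is the absolute log2 ratio over the root of F. Counting intervals cover counting error only. Lists were matched on the deposited annotation text. Members and lists were chosen with earlier results of these data known, and subgroups after their values were seen. Named genes were the 10 largest ratios each way among annotated, called genes of at least median level without overlap, the 6 largest differences each way among annotated, called genes of that level whose direction held without any 1 library, and in each list the gene with the most counts and those with the smallest p each way. Not all of these are described. Alternatives were other scalings, filters, DESeq2 1.42.0, limma-voom, other sample sets, counts less 1 (10066 higher, 9969 lower at 37 °C), a replicate block and leaving out each library.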

Additional observations from a re-analysis of the deposited data

Results flagged for a closer look

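Of the 140 genes named by identifier, 54 had a polysome-to-total ratio that differed between the temperatures by the test of the difference itself (edgeR's quasi-likelihood test, adjusted p below 0.05), 28 with a larger ratio at 37 °C and 26 with a smaller one. Among all tested genes the ratio was larger at 37 °C for 10.2% and smaller for 8.42%. The named genes were chosen for large ratios, large differences, small p-values or high counts. Those named for the largest differences had to pass this same test to be chosen. The count of 54 therefore describes the chosen genes and is no estimate for genes at large. Values here are differences of log2 ratios, 37 °C minus 23 °C, over 3 libraries a group.

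Without mock total replicates 6 and 7, 11 of the 28 and 14 of the 26 passed the test, in a fit that keeps 1 mock total library and takes its spread from the other groups. The direction was the same for 27 of the 28 and 26 of the 26, cytochrome c oxidase subunit 2 being the exception at -0.10. The other larger ratios not called there were those of Calreticulin-3, SINA-like 10, the S7 gene, EF-1-alpha, the TLD-domain protein, histone H2B, DED1, the DEA(D/H)-box helicase, WRKY 93, the MYB-like gene, antenna protein P4, ATP synthase subunit a, and both Rubisco and both cytochrome b559 genes. The smaller ratios not called there were those of the HtpG gene, BIG, UBR1, the second S7 gene, IF-2, elongation factor 2, splicing factor 8, the pentatricopeptide gene, auxin response factor 3, EIN3-binding F-box protein 1, laccase-3 and Nup98-Nup96.

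Genes whose polysome-to-total ratio was larger in heat included several of protein folding and turnover. The 17.6 kDa class I heat shock protein differed by 1.34, ClpC by 0.99 and ClpA by 1.60. Calreticulin-3 differed by 0.82, a DnaJ gene by 0.76 and SINA-like 10 by 0.70. In translation the values were 0.71 for a 40S S7 gene, 1.26 for initiation factor 5A-1/2, 1.41 for EF-Ts and 0.68 for EF-1-alpha. Among nuclear proteins they were 0.65 for the TLD-domain nucleolar protein, 1.16 for histone H2B, 0.91 for DED1 and 0.82 for the DEA(D/H)-box helicase. Glycine-rich RNA-binding protein 3 differed by 0.85, the SAUR gene by 0.88, WRKY 93 by 1.81, the MYB-like gene by 1.80 and peroxidase 42 by 1.57. Chlorophyll a-b binding protein P4 differed by 0.72, GTPase Der by 4.42 and glucan endo-1,3-beta-glucosidase 7 by 4.45.

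The larger ratios of organelle-type genes were 4.64 and 4.56 for Rubisco large chain, 4.37 and 4.35 for cytochrome b559, 0.67 for ATP synthase subunit a and 1.84 for cytochrome c oxidase subunit 2. Mock total replicates 6 and 7 had 1.47% and 1.46% of their counts in the plastid list, against 0.101% in mock total replicate 5. Without these libraries the Rubisco and cytochrome b559 genes differed by 0.34 to 0.74.

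Smaller ratios in heat were found for the HtpG gene with the most counts and a second DnaJ gene at -0.77 and -1.62, and for calreticulin at -1.07. BIG differed by -1.18, UBR1 by -1.61 and the RING finger gene by -2.41. In translation the values were -0.69 for the second S7 gene, -1.69 for isoleucine--tRNA ligase, -0.93 for IF-2 and -1.60 for elongation factor 2. Splicing factor 8 differed by -0.93, DBP9 by -1.46, helicase A by -3.22 and the pentatricopeptide gene by -0.75. Regulators with smaller ratios were auxin response factor 3 at -0.96, EARLY FLOWERING 3 at -1.75 and EIN3-binding F-box protein 1 at -0.78. Enzymes with smaller ratios were the pectin lyase-like gene at -2.24, peroxidase 60 at -2.28, laccase-3 at -1.40, S-adenosylmethionine decarboxylase at -1.05 and phosphoadenosine phosphosulfate reductase at -3.22. The dynein light chain gene differed by -3.20, the chromodomain helicase by -3.26, the U3snoRNP10 gene by -3.01 and Nup98-Nup96 by -3.33.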

How the results depend on the processing

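For 37 °C, 10560 genes were higher and 9743 lower, and the counts stayed within 1.5 times of these under RLE and upper-quartile scaling, no filter, DESeq2, limma-voom, a fit to the 6 libraries alone, an absolute log2 ratio over 1, and without any 1 library (9375 to 9811 higher, 8759 to 9002 lower). They moved further with library totals alone (3090 higher, 19127 lower, so that 13.9% of calls were higher, against 52.0%) and at a mean of at least 5 CPM, where fewer genes were tested (7025 higher, 6250 lower). At 23 °C the counts of 9275 and 9327 were 3258 and 17246 with library totals alone, 6003 and 5911 at a mean of at least 5 CPM, and 5444 higher with an absolute log2 ratio over 1, and 7867 to 9188 higher and 8132 to 9075 lower without 1 library. The difference between temperatures gave 3502 larger and 2891 smaller ratios, 1678 larger with library totals alone, 1471 and 1094 without mock total replicates 6 and 7, and 2291 to 3948 larger and 1965 to 3599 smaller without 1 library; the cause was not tested.

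With library totals alone the log2 ratio changed sign for 9 of the named genes that were called higher or lower on the TMM scale. They included HtpG Niben101Scf04847g03018.1 (-0.55), HSFA2 (-0.35), 10 kDa chaperonin (-0.09), EF-1-alpha (-0.25) and Rubisco small chain 8B (-0.26). The others were splicing factor 9 (-0.02), ERF 1 (-0.41), a MYB-like gene, Niben101Scf03993g06007.1 (-0.16) and the knotted-1-like gene (-0.11). Sign changes of named genes not called on the TMM scale were not counted. Relative to the median of all genes, list medians kept their sign under the alternatives run, except for bHLH in 1, NAC in 2 and pathogenesis-related proteins in 1. A change of scaling moves all genes nearly alike, so the scalings could not test this. The filter and the left-out libraries could, and the exceptions came from them. Sizes moved over 1.5 times at a mean of at least 5 CPM for auxin response (0.26, against 0.90), ERF and DREB (1.37, against 0.74), disease resistance (-1.34, against -0.75), RNA helicases (-0.58, against -0.93), nucleolar genes (-0.48, against -0.79), class III peroxidases (0.34, against 0.77), heat stress factors (0.13, against 0.39), the genes known for upstream frames (0.20, against 0.61) epidermis (0.12, against 0.50) and vascular genes (-0.12, against -0.02).

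No paired analysis was possible because the 37 °C polysome libraries (replicates 5, 6 and 7) and total libraries (2, 3 and 4) share no replicate number, which also holds for the difference. A replicate block could be fitted for the polysome effect averaged over both temperatures, with 4014 higher and 4746 lower, against 11467 and 11234 without it. The blocked fit held no term for temperature, while the other fit did, so the change in counts cannot be credited to the block. Same-numbered libraries did not deviate together (correlations of -0.0584 to 0.00729).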

Other observations

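Families outside the lists were read from annotation texts that at least 10 tested genes share, of which there were 249, and the 8 with the highest and the 8 with the lowest median log2 ratio at 37 °C are given as a description, chosen for those medians and with no test. All 17 universal stress protein A-like genes were higher (median 1.91), and so were 9 of 10 genes of glutathione S-transferase 3, a detoxifying enzyme (median 1.76), with none lower. Glutaredoxin-C1, a thiol reductase, counted 11 higher and 1 lower of 14 (median 1.62), and the wound-responsive family 7 higher and 1 lower of 10 (median 2.14). Acyl carrier protein, the shuttle of fatty acid synthesis, had 10 of 11 higher (median 1.63), RADIALIS 9 of 14 (median 2.02) and the LIM-domain genes annotated Nebulette 8 of 10 (median 1.60), with none lower in the 3 families. The Pollen Ole e 1 and extensin family counted 12 higher and 1 lower of 15 (median 1.61).

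All 10 genes of RNA polymerase subunit A' were lower (median -2.91), as were all 11 FRIGIDA-like 3 genes (median -1.68), named for a flowering regulator of Arabidopsis. The chromatin remodeller CHD3 had 12 of 14 lower (median -1.44), the mismatch repair protein MutS 8 of 10 (median -1.66) and the transducin and WD-40 family 10 of 12 (median -1.70). Of beta-galactosidases, enzymes of the wall, 11 of 14 were lower (median -1.50), of potassium-efflux transporters 9 of 11 (median -1.49), and of genes annotated myosin 1, a motor protein, 8 of 10 (median -1.51). None of these 8 families had a gene called higher. With library totals alone the medians of the 8 high families were 0.63 to 1.17. That scaling lowered the medians of all 16 by a similar amount. Since the families were chosen for their medians, this is no test of their direction.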
